A study of Mus musculus with 5 samples.

Results

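The genes of the autophagy machinery were followed in RAW264.7, a monocyte/macrophage line of the mouse, with and without introduced mouse Cd137. The set holds 40 genes, taken by symbol from a list of core autophagy genes, and all 40 have an expression value among the 16003 genes that do. The CD137 cells express Renilla luciferase together with mouse Cd137, and the control cells express Renilla luciferase alone, so both carry the luciferase. CD137 is the product of Tnfrsf9 and belongs to the TNF receptors that co-stimulate immune cells. The series has 3 CD137 and 2 control samples, and the 3 libraries analysed here are CD137 replicates 2 and 3 and control replicate 2. How Cd137 was introduced, and whether each line is a clone or a pool, is not stated in the labels. The study asks about migration of these cells and their differentiation toward osteoclasts.

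Autophagy is the process by which a cell encloses part of its cytoplasm in a membrane, the autophagosome, and delivers it to the lysosome for breakdown. A kinase complex around ULK1 starts it, a lipid kinase complex around VPS34 and Beclin 1 marks the membrane, ATG9 and ATG2 supply lipid, and a ubiquitin-like conjugation system attaches proteins of the LC3 and GABARAP families to the growing membrane. Receptors then tie cargo to LC3, and the closed autophagosome fuses with the lysosome. In macrophages the same machinery takes part in clearing microbes and damaged organelles and, in osteoclasts, components of it act at the bone-resorbing border.

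The regulatory sequence before 4 of the genes that rose in CD137 cells is shown because these are members with a RefSeq promoter window, 2 that hold and 2 that lack the 6 letters CACGTG, chosen after their values were seen. They are the core of the element bound by TFEB and TFE3, known transcriptional regulators of autophagy and lysosomal genes. The letters are RefSeq's for GRCm38.p6, the assembly also called mm10, read 5′ to 3′ toward the gene, with CACGTG in capitals and without any base inside the gene as the deposited table gives it.
Atg3, chr16:45158579-45158783, plus strand: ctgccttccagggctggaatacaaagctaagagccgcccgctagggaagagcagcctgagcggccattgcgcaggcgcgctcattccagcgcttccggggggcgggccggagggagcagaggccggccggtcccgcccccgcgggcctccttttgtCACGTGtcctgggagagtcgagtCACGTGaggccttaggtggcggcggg
Atg5, chr10:44268089-44268338, plus strand: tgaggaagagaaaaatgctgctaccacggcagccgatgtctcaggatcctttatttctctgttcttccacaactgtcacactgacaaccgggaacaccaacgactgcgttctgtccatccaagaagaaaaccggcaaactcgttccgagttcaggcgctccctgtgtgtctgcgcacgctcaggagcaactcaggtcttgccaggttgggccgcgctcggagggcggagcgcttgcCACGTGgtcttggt
Gabarapl1, chr6:129532942-129533191, plus strand: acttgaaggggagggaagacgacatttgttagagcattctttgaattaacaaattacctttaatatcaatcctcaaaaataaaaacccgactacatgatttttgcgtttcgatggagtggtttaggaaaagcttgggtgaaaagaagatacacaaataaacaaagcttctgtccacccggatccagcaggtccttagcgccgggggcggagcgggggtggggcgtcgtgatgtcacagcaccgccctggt
Vmp1, chr11:86683837-86684086, minus strand: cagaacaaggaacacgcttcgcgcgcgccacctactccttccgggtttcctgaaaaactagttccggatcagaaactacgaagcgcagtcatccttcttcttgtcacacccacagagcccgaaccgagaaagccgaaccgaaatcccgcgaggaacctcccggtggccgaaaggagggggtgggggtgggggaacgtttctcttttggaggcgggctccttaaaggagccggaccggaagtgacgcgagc
The stretch before Atg3 holds CACGTG 2 times, and that before Atg5 holds it 1 time, from 14 to 9 bases before the RefSeq start. The Gabarapl1 and Vmp1 stretches hold none. Windows of 250 bases before the start were found for 33 of the 40 genes. CACGTG, which reads the same on both strands, was in 3 of these 33, Atg3, Atg5 and Atg7, against 6.86 percent of the 27025 genes with a window. By outcome it was in 2 of 12 genes that rose, 0 of 3 that fell and 1 of 18 others. The FOXO motif, searched as GTAAACA on both strands, was in 0 of the 33 windows, against 3.54 percent of all genes with a window. The AP-1 motif, searched as TGAGTCA on both strands, was likewise in 0 of the 33, against 5.16 percent. A match describes letters in these windows and is not a measured binding site.

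Values are FPKM (mapped fragments scaled by transcript length and by the library's total). Tnfrsf9 itself was at 364 and 370 FPKM in CD137 replicates 2 and 3, against 5.06 FPKM in the control, as the labels require. All 8 macrophage markers examined reached 1 FPKM, with a summed level of 1875 and 1923 FPKM in the CD137 libraries and 3055 FPKM in the control. Of the 8, 4 were higher in both CD137 libraries than in the control (Fcgr1, Adgre1, Itgam and Spi1) and 4 lower in both, Lyz2 standing at 646 and 669 FPKM in CD137 cells and 1693 FPKM in the control. None of the 2 T cell, 1 B cell and 3 fibroblast markers that have a value reached 1 FPKM. Of the epithelial markers Krt8 was at 2.60 and 0.66 FPKM in CD137 replicates 2 and 3 and 0.25 FPKM in the control. Epcam was at 0.44 and 0.08 FPKM against 0.03 FPKM, and Cdh1 at 0.65 and 0.06 FPKM against 0.07 FPKM. Each of these epithelial markers was thus highest in CD137 replicate 2. Of the mature osteoclast markers Acp5 was at 4.95 and 4.66 FPKM against 2.86 FPKM and Ctsk at 0.80 and 0.77 FPKM against 0.07 FPKM. The osteoclast receptor Oscar had 0.12 FPKM in each CD137 library and is listed at 0 in the control. The part of any of these in the results was not tested. In such bulk samples fewer cells of a type and less RNA per cell cannot be told apart. Sequencing depth was nearly equal, CD137 replicates 2 and 3 having 0.983 and 0.988 times the control's.

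Of the 40 autophagy genes 39 were expressed at 1 FPKM or more in all 3 libraries, between 3.43 and 191 FPKM. In CD137 cells 15 of them rose, 5 fell and 19 did not pass. A gene is said to have risen or fallen where its adjusted p is under 0.05 in limma, a linear model with moderated variances, fitted to log2(FPKM + 1) of all 10720 genes that reach 1 FPKM in at least 1 library. In that fit 42.6 percent of all genes passed, 24.4 percent higher and 18.2 percent lower, against 38.5 percent higher and 12.8 percent lower among the 39 autophagy genes. All 39 were at 3.43 FPKM or more in every library, whereas the fit takes any gene that reaches 1 FPKM in some library. Shares over all genes in the fit, here and below, are therefore not of sets alike in abundance. A share over genes as abundant as the 39 was not taken. The median log2 fold change was 0.14 over the 39 genes and 0.03 over all genes in the fit. Summed over the 40 genes, the level was 907 and 904 FPKM in the CD137 libraries and 784 FPKM in the control. Most changes were small: on the FPKM + 1 scale 14 of the 39 were at least 1.2-fold higher and 4 at least 1.2-fold lower, where 21.1 and 15.2 percent of all genes in the fit were. At 1.5-fold the counts were 3 higher and 1 lower, where 5.21 and 3.12 percent of all genes were. Both CD137 libraries lay above the control for 24 genes and below it for 11, where 49.0 and 40.2 percent of all genes in the fit did so.

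The spread in this fit comes from 2 CD137 libraries with 1 residual degree of freedom, the control being a single library assumed to vary as they do, and nothing in the labels says that the libraries are separate cultures. When all 16003 genes are fitted with limma, 0 autophagy genes and 0 genes in all pass, with 19 of the 39 autophagy genes at an unadjusted p under 0.05, 13 higher and 6 lower. In that fit 33.0 percent of all 16003 genes were under the same limit, 18.8 percent higher and 14.2 percent lower, and 42.6 percent of the 10720 genes that reach 1 FPKM, 24.2 percent higher and 18.5 percent lower.

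**Figure D1:**
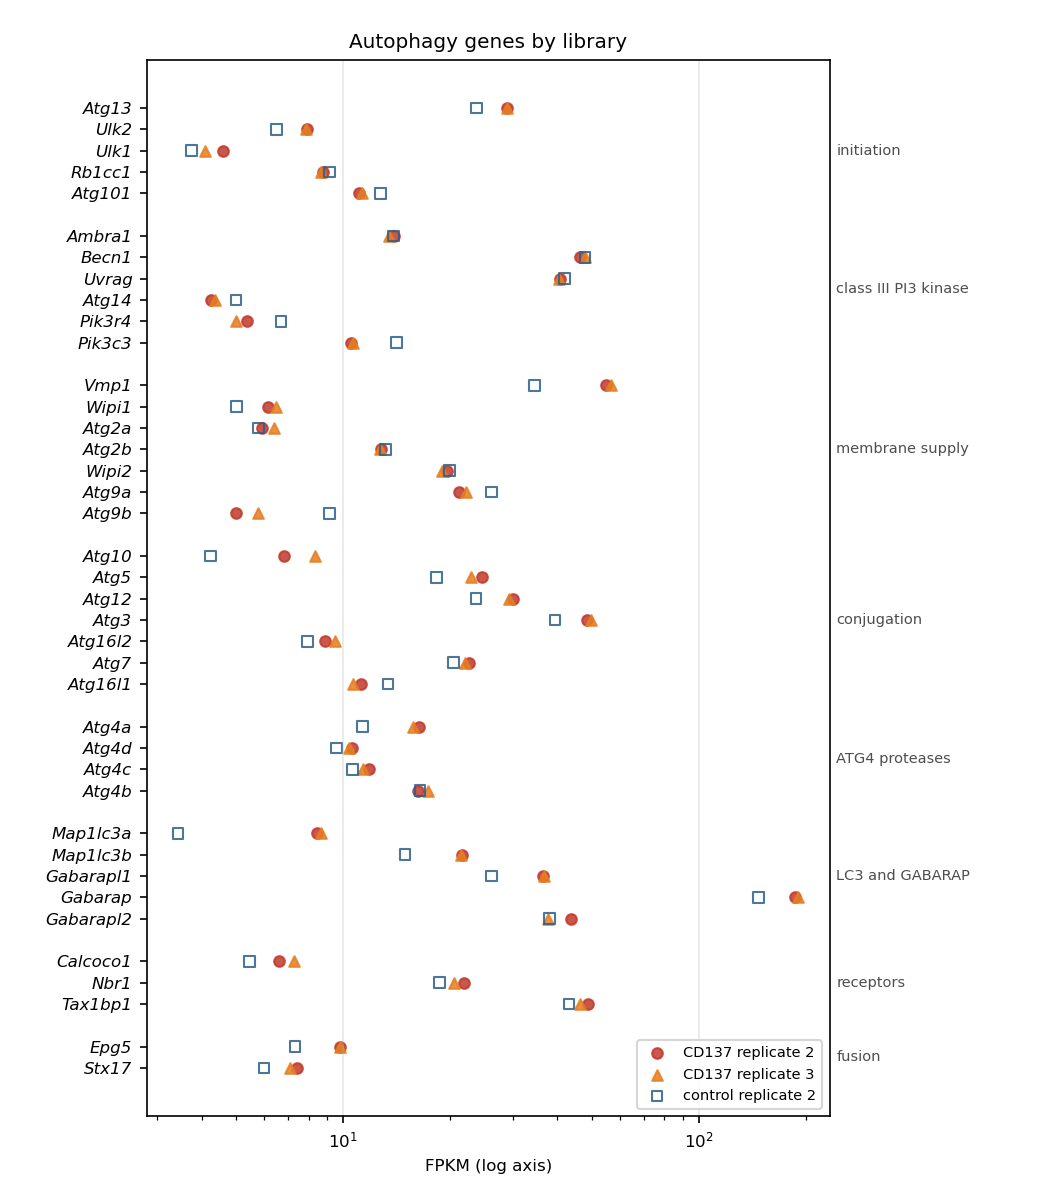
FPKM of the 39 expressed autophagy genes on a log axis, grouped by role, with 1 mark per library (circle, CD137 replicate 2; triangle, CD137 replicate 3; open square, control replicate 2). The CD137 marks lie close together for most genes, both right of the control for 24 genes and both left of it for 11.

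The LC3 and GABARAP proteins are coupled to lipid and recruit cargo and fusion factors. Their genes had the most frequent increase of any step, with 4 of 5 higher and 0 lower. This count and those of the steps below stand beside 24.4 percent of all genes in the fit higher and 18.2 percent lower. Map1lc3a, which encodes LC3A (gene ID 66734, mm10 chromosome 2 from 155276364 to 155278073, plus strand), was at 8.46 and 8.63 FPKM in the CD137 libraries against 3.43 FPKM in the control. Both CD137 values were far above the control, and the log2 fold change of 1.11 ± 0.07 (SE, limma adjusted p = 0.00116) was the largest among the autophagy genes and 100th in absolute size among the 10720 genes fitted. Map1lc3b encodes LC3B, the form most often used to count autophagosomes, and had 21.6 and 21.4 FPKM in CD137 cells against 14.9 FPKM in the control. Its log2 fold change was 0.50 ± 0.05 (SE, limma adjusted p = 0.00282). Gabarap, the most abundant member of the whole set, was at 187 and 191 FPKM in CD137 cells and 147 FPKM in the control, a log2 fold change of 0.35 ± 0.04 (SE, limma adjusted p = 0.00269). Gabarapl1, a close paralogue, was at 36.4 and 36.6 FPKM against 26.1 FPKM, a log2 fold change of 0.47 ± 0.05 (SE, limma adjusted p = 0.00246). In each of these 4 genes the CD137 libraries differed from each other far less than from the control. Gabarapl2, which encodes GATE-16, was at 43.7 FPKM in CD137 replicate 2 and 37.8 FPKM in replicate 3, against 38.1 FPKM in the control. Its CD137 libraries lay on either side of the control, and the log2 fold change of 0.09 ± 0.09 (SE, limma adjusted p = 0.455) did not pass.

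The summed level of the 5 genes was 297 and 295 FPKM in CD137 cells against 230 FPKM in the control. The make-up of that sum moved little for its main component. Gabarap gave 62.9 and 64.6 percent of it in the CD137 libraries and 64.1 percent in the control. Map1lc3a gave 2.85 and 2.92 percent in CD137 cells and 1.49 percent in the control, and Gabarapl2 14.7 and 12.8 percent against 16.6 percent. LC3A thus stayed the least abundant of the 5 transcripts in every library.

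In the conjugation system 4 of 7 genes rose and 1 fell. Atg10 is the E2-like enzyme that joins ATG12 to ATG5 (gene ID 66795, chromosome 13 from 90935348 to 91224789, minus strand). It had 6.81 and 8.34 FPKM in CD137 cells against 4.23 FPKM in the control, a log2 fold change of 0.71 ± 0.12 (SE, limma adjusted p = 0.0109). Its CD137 libraries were the farthest apart of any gene that rose, replicate 3 being 1.22 times replicate 2, yet both were well above the control. Atg5, the acceptor of that conjugate, had 24.6 and 22.9 FPKM in CD137 cells against 18.3 FPKM, a log2 fold change of 0.36 ± 0.06 (SE, limma adjusted p = 0.011). Atg12, the ubiquitin-like partner, was at 30.0 and 29.2 FPKM against 23.6 FPKM and rose. Atg3, the E2-like enzyme for LC3 whose promoter is printed above, was at 48.5 and 49.8 FPKM against 39.4 FPKM and rose as well. Atg12 and Atg3 thus had nearly the same increase, 1.24-fold each on the FPKM + 1 scale. Atg7, the E1-like enzyme that activates both ATG12 and LC3, was at 22.6 and 22.0 FPKM against 20.5 FPKM and did not pass.

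The paralogues Atg16l1 and Atg16l2 pointed in opposite directions. ATG16L1 places the ATG12 and ATG5 conjugate on the membrane. Atg16l1 was at 11.3 and 10.7 FPKM in CD137 cells against 13.4 FPKM in the control and fell to 0.832 of it on the FPKM + 1 scale (limma adjusted p = 0.0289). Atg16l2 was at 8.90 and 9.46 FPKM against 7.93 FPKM and did not pass (adjusted p = 0.0922). The difference between the paralogues was not tested.

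The ATG4 proteases trim LC3 and GABARAP before conjugation and release them from lipid afterwards. Of 4 genes only Atg4a passed, at 16.4 and 15.7 FPKM in CD137 cells against 11.3 FPKM in the control, a log2 fold change of 0.46 ± 0.06 (SE, limma adjusted p = 0.00499). Atg4a lies on the X chromosome and overlaps Psmd10, a gene of the opposite strand, by 2819 bases in the deposited annotation. Psmd10 was at 46.4 and 48.8 FPKM in CD137 cells and 31.6 FPKM in the control, and without a stated strand the reads of the shared stretch cannot be assigned. Atg4b, the most active family member toward LC3, was at 16.3 and 17.3 FPKM in CD137 cells and 16.4 FPKM in the control, so its values overlapped. Atg4c had 11.8 and 11.4 FPKM against 10.6 FPKM. Atg4d had 10.6 and 10.4 FPKM against 9.59 FPKM. It overlaps Kri1 of the opposite strand by 1381 bases, so the same limit holds for its reads. Kri1 was at 18.4 and 18.9 FPKM in CD137 cells and 21.7 FPKM in the control. Atg4b, Atg4c and Atg4d did not pass.

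Genes of membrane supply moved in both directions, with 2 of 7 higher and 2 lower. Vmp1, an endoplasmic reticulum protein needed for autophagosomes to form and detach, had the second-smallest p of the set after Map1lc3a. It was at 54.8 and 56.5 FPKM in CD137 cells against 34.5 FPKM in the control, a log2 fold change of 0.67 ± 0.05 (SE, limma adjusted p = 0.00126). Vmp1 lies on chromosome 11 from 86583854 to 86683822 on the minus strand, and the 92-base hairpin of miR-21a sits inside it on the same strand, 213 bases from its 3′ end and within an exon of Vmp1 in GENCODE. The FPKM of Vmp1 and any primary transcript of miR-21a read over that stretch cannot be told apart. Wipi1, a reader of the lipid made by VPS34, was at 6.13 and 6.48 FPKM in CD137 cells against 5.01 FPKM and rose 1.22-fold on the FPKM + 1 scale, a call lost under median-ratio scaling and quantile normalization. Its relative Wipi2 was at 19.5 and 18.9 FPKM against 19.9 FPKM and did not pass.

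Both ATG9 genes fell. ATG9 is a membrane-spanning protein of the core machinery that moves lipid between membrane leaflets. Atg9b (gene ID 213948, chromosome 5 from 24384181 to 24392143, minus strand) was at 5.0 and 5.74 FPKM in CD137 cells against 9.14 FPKM in the control, a log2 fold change of -0.67 ± 0.10 (SE, limma adjusted p = 0.00634) and the largest decrease in the set. It overlaps Nos3 of the opposite strand by 294 bases, and Nos3 was at or below 0.18 FPKM in every library. Atg9a, the more abundant form, was at 21.2 and 22.1 FPKM in CD137 cells against 26.2 FPKM and fell to 0.834 of the control on the FPKM + 1 scale. The lipid transfer proteins that work with ATG9 did not pass: Atg2a was at 5.91 and 6.40 FPKM against 5.77 FPKM, and Atg2b at 12.8 and 12.7 FPKM against 13.1 FPKM.

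In the class III PI3 kinase complex, which makes the lipid mark of the autophagosome, 0 of 6 genes rose and 2 fell, both core subunits. Pik3c3, which encodes the catalytic subunit VPS34, was at 10.5 and 10.6 FPKM in CD137 cells against 14.1 FPKM in the control, a log2 fold change of -0.39 ± 0.06 (SE, limma adjusted p = 0.0077). Pik3r4, which encodes its regulatory partner VPS15, was at 5.36 and 4.99 FPKM against 6.68 FPKM, a log2 fold change of -0.32 ± 0.08 (SE, limma adjusted p = 0.0341). All fitted changes of the 6 genes were below 0. Ambra1 was at 0.0097 where CD137 replicate 3 is left out, and Becn1 at 0.0 where CD137 replicate 2 is left out. The other 4 genes did not pass, among them Becn1, whose product also belongs to the core. Becn1, encoding Beclin 1, was at 46.5 and 47.9 FPKM in CD137 cells and 47.9 FPKM in the control. Uvrag, of the endosomal form of the complex, was at 40.8 and 40.5 FPKM against 41.8 FPKM. Atg14, of the autophagosomal form, was at 4.26 and 4.35 FPKM against 4.99 FPKM. Ambra1, a Beclin 1 binding regulator, was at 13.9 and 13.4 FPKM against 13.8 FPKM, so its CD137 libraries lay on either side of the control.

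In the initiation complex 2 of 5 genes rose and 0 fell. Atg13, the adaptor that holds the complex together, was at 28.8 FPKM in both CD137 libraries against 23.7 FPKM in the control and rose 1.21-fold on the FPKM + 1 scale. The kinase gene Ulk2 was at 7.91 and 7.84 FPKM against 6.48 FPKM and rose 1.19-fold on that scale, a call lost under median-ratio scaling and quantile normalization. Its paralogue Ulk1, the main kinase, was at 4.59 and 4.09 FPKM against 3.74 FPKM and did not pass. The scaffold gene Rb1cc1, encoding FIP200, was at 8.78 and 8.67 FPKM against 9.13 FPKM. Atg101, whose product stabilises ATG13, was at 11.1 and 11.3 FPKM against 12.7 FPKM. Both of the last lay below the control in each CD137 library and did not pass.

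Among the cargo receptors of the set, 1 of 3 expressed genes rose. Calcoco1, a receptor for endoplasmic reticulum and Golgi fragments, was at 6.61 and 7.25 FPKM in CD137 cells against 5.44 FPKM in the control and rose 1.23-fold on the FPKM + 1 scale (limma adjusted p = 0.043), a call lost under median-ratio scaling, quantile normalization and a fit without the variance trend. Nbr1, a receptor for ubiquitin-tagged cargo, was at 21.9 and 20.5 FPKM against 18.7 FPKM. Tax1bp1, which also binds ubiquitin, was at 48.8 and 46.4 FPKM against 43.1 FPKM. Nbr1 and Tax1bp1 did not pass, though both CD137 libraries exceeded the control in each. Optn, encoding optineurin, was listed at 0.03 FPKM in CD137 replicate 2 and at 0 in the other libraries, so these cells hold hardly any of its transcript. Of the fusion genes, Epg5, a tether between autophagosome and lysosome, was at 9.79 and 9.82 FPKM in CD137 cells against 7.31 FPKM, a log2 fold change of 0.38 ± 0.06 (SE, limma adjusted p = 0.0101). The fusion SNARE gene Stx17 was at 7.41 and 7.07 FPKM against 5.98 FPKM and did not pass (adjusted p = 0.0544).

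**Figure D2:**
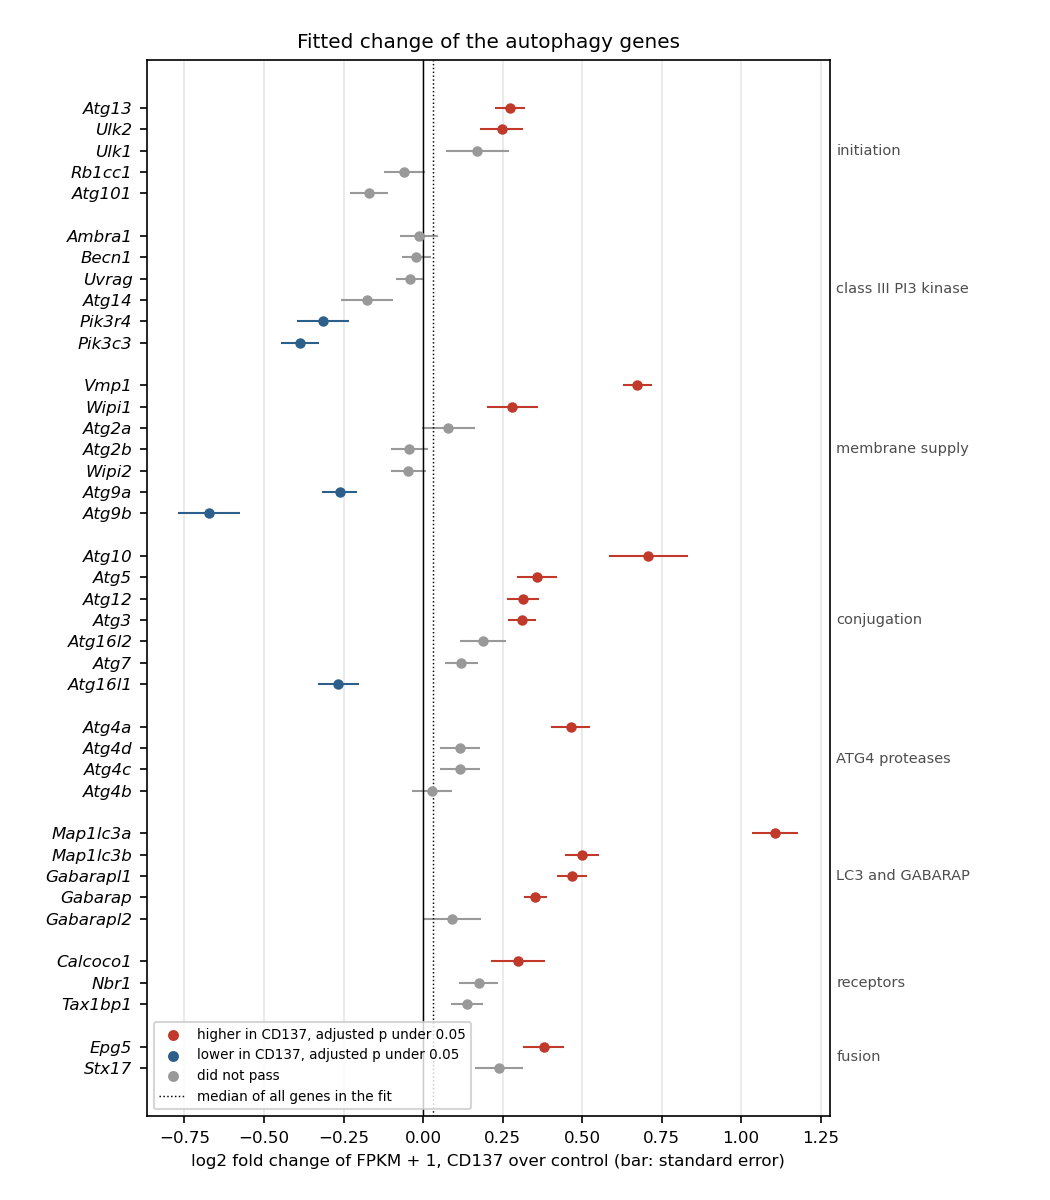
Fitted log2 fold change of FPKM + 1, CD137 over control, with its standard error, for the 39 expressed autophagy genes by role. The LC3 and GABARAP genes lie to the right of 0, the class III PI3 kinase genes to the left, and Map1lc3a (1.11) and Atg9b (-0.67) are the extremes.

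The number of reads behind these values could be solved for 34 of the 40 genes from the p-values of the authors' pairwise tests. It ranged from 64 reads, for Map1lc3a in the control, to 3778 reads, for Gabarap in CD137 replicate 3. For Map1lc3a the reads were 155 and 159 in CD137 cells against 64 in the control, a ratio of 2.49 with a 95 percent counting interval from 1.90 to 3.26 after scaling for depth. For Vmp1 they were 2680 and 2779 against 1718, a ratio of 1.61 (interval from 1.53 to 1.70), and for Atg9b 344 and 397 against 642, a ratio of 0.586 (interval from 0.527 to 0.651). Such an interval is computed from the read numbers alone, so it is tighter for genes with more reads by construction. Reads were solved for 13 genes that rose and 5 that fell, and each of these intervals lay on the matching side of 1. The reads are from the same libraries as the FPKM, so this match is no separate evidence for the calls. Reads were solved for autophagy genes only, so no share over all genes stands beside these counts. Among 16 genes that did not pass, 10 intervals held 1, 5 lay above it and 1 below it. These intervals cover counting error only and say nothing of the spread between cultures.

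The pairwise Poisson test in the authors' deposited table gave an adjusted value under 0.05 to 24 of the 40 autophagy genes for CD137 replicate 2 against the control. For replicate 3 it did so for 25, Optn having no value there. Of all genes tested, 15577 and 15468 in the pairs, 40.2 percent passed in each. Those include many genes under 1 FPKM, whereas all of the 40 but Optn reach it, so the shares are not of like sets. The share over genes that reach 1 FPKM was not taken. The same test between the CD137 libraries in the authors' deposited table called 0 of the 40, against 1.43 percent of all genes. Such a test compares libraries, not conditions.

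Lists of further genes around the pathway are given for comparison. Of 16 expressed genes on a list of further selective-autophagy receptors and their kinases 9 rose and 2 fell. These are 56.2 and 12.5 percent, where 24.4 and 18.2 percent of all genes in the fit rose and fell. Sqstm1, which encodes p62, the best known receptor for ubiquitin-tagged cargo and itself an autophagy substrate, was at 670 and 664 FPKM in CD137 cells against 352 FPKM in the control. Its log2 fold change was 0.92 ± 0.03 (SE, limma adjusted p = 0.000552), and it was more abundant than any of the 40 genes in every library. Tex264, a receptor for the endoplasmic reticulum, was at 34.3 and 37.8 FPKM against 24.3 FPKM, and the mitochondrial kinase gene Pink1 at 8.68 and 9.01 FPKM against 6.14 FPKM, and both rose. Bnip3, a hypoxia-responsive receptor for mitochondria, went the other way and fell, at 205 and 212 FPKM in CD137 cells against 361 FPKM.

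Of 20 expressed genes of autophagosome growth and fusion outside the set 7 rose and 1 fell. The list passed about as often as the background, 40.0 percent against 42.6 percent of all genes in the fit. By direction 35.0 percent rose and 5.0 percent fell, where 24.4 and 18.2 percent of all genes did. Tecpr1, which links conjugated ATG5 to lysosomal membranes, was at 20.8 and 21.2 FPKM in CD137 cells against 11.4 FPKM in the control and rose 1.78-fold on the FPKM + 1 scale. Sh3glb1, a Beclin 1 partner that bends membranes, was at 97.1 and 100.1 FPKM against 68.1 FPKM and rose. Wdr45, a relative of the WIPI genes, and Vps41, of the tethering complex for lysosomal fusion, rose 1.34-fold and 1.29-fold on that scale.

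Upstream regulators were more often lower: of 26 expressed genes of mTORC1, AMPK and the MiT and FOXO factors 3 rose and 7 fell. These are 11.5 and 26.9 percent, where 24.4 and 18.2 percent of all genes in the fit rose and fell. Together 38.5 percent passed, against 42.6 percent of all genes. Ddit4, a stress-induced inhibitor of mTORC1, was at 23.1 and 23.8 FPKM in CD137 cells against 48.8 FPKM in the control and fell to 0.491 of it on the FPKM + 1 scale. Mtor, the kinase that restrains autophagy in fed cells, was at 9.09 and 9.27 FPKM against 12.4 FPKM and fell. The factor genes Tfeb and Mitf fell as well, Tfeb standing at 11.2 and 11.1 FPKM against 13.5 FPKM and Mitf at 11.8 and 12.1 FPKM against 15.1 FPKM. Tfe3 was at 30.0 and 31.5 FPKM against 34.9 FPKM and did not pass. Fnip2, a partner of folliculin in lysosomal nutrient sensing, was at 62.1 and 61.5 FPKM against 47.6 FPKM and rose. Median log2 fold changes were 0.20 for the further receptors, 0.09 for growth and fusion and -0.16 for the regulators, beside 0.03 for all genes in the fit, and differences between the lists were not tested.

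**Figure D3:**
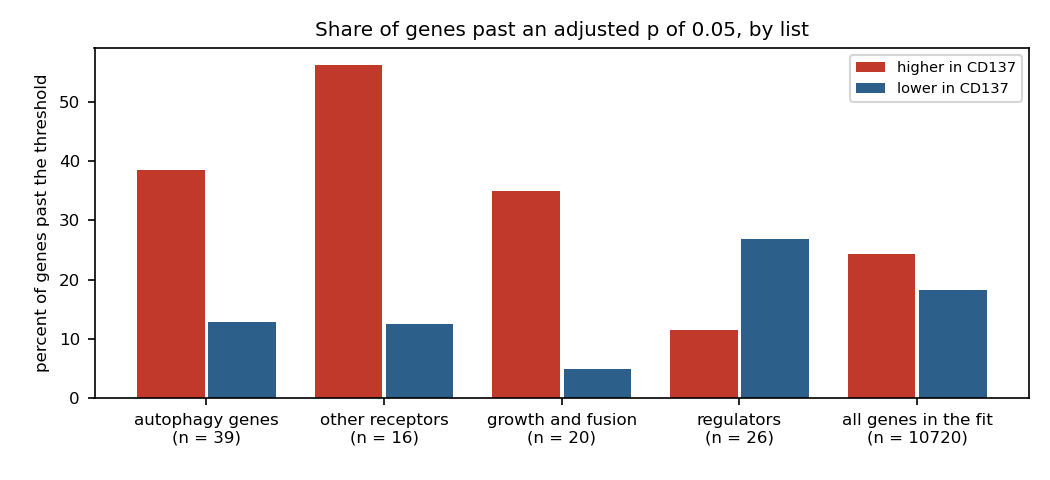
Percent of expressed genes past an adjusted p of 0.05 in limma, higher (left bar) and lower (right bar) in CD137 cells, for the autophagy genes, the 3 neighbouring lists and all genes in the fit. The autophagy genes stand at 38.5 percent higher and 12.8 percent lower, all genes at 24.4 and 18.2 percent, and the regulators are the only list shown with more lower than higher genes.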

How the data were processed

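Per the labels' protocols, libraries were made from total RNA using oligo-dT beads, and groups and replicate numbers come from the sample titles. Each library has a column of FPKM values that the authors deposited with 2 decimals, per the file headers. The submitters' processing notes name mm10, HISAT2, Bowtie2 and RSEM but give neither their roles nor versions, and no source states strandedness. The file lists 21990 genes, of which 5987 lack a value, and 1 broken line was left out. The deposited log2 ratios were not used for any result given here. The deposited p-values are those of pairwise Poisson tests, per the file headers. Their deposited adjusted values exceed 1 for some genes and were handled as a score.

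Because the table holds FPKM, limma 3.58.1 in R 4.3.3 (empirical Bayes with a mean-variance trend) was fitted to log2(FPKM + 1) of genes reaching 1 FPKM in some library, with Benjamini-Hochberg adjustment over all of them and a threshold of 0.05. A pseudocount of 1 understates the change of low genes. Reads were solved as whole numbers that return all 3 deposited p-values of a gene, a step chosen after seeing the data, with depth ratios read from genes with 1 read in a pair of libraries. The fit and the solver were also run on simulated data, whose outcome is not given here. The reads simulated for the solver used the same number of control reads per FPKM and kilobase for every gene. In the solved genes that number ran from 6.815 for Atg4c to 18.06 for Atg14, so the simulation differs from the data there. Members and lists were chosen with earlier results of these data known, so no list was tested as a whole. The choice to fit only genes that reach 1 FPKM was also made with earlier results known. Every call rests on that choice, since the fit of all genes gives none of them. Values of every library are given for all expressed members, and fold change with SE for the 12 changed members with the largest change and the 5 LC3 and GABARAP genes; of each neighbouring list up to 4 changed genes with the largest change are named, with Sqstm1, Tfeb, Tfe3 and Mtor. Alternatives were other filters, a pseudocount of 0.1, other scalings, no trend and leaving out each CD137 library. The replicates numbered 1 of both groups were not analysed here.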

Additional observations from a re-analysis of the deposited data

How the results depend on the processing

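Filters at 5 FPKM, a pseudocount of 0.1, median-ratio scaling, quantile normalization and a fit without a variance trend left 12 to 15 autophagy genes higher and 5 lower. Calcoco1, Ulk2 and Wipi1 lost their calls under both scalings, and Calcoco1 also without the trend. Fitting all genes with limma gave 0 calls higher and 0 lower, among autophagy genes and among all genes, with a smallest adjusted p of 0.0802; at an unadjusted p under 0.05 there were 5281 of 16003 genes, 3013 higher and 2268 lower. Of the 10720 genes that reach 1 FPKM, the pseudocount of 0.1 gave 2618 higher and 1927 lower, and the fit without the trend 2174 and 1627. Of the same 10720, median-ratio scaling gave 2260 higher and 2210 lower and quantile normalization 2101 and 2090, a nearly even split. The 5 FPKM filter gave 2442 higher and 1964 lower out of a smaller set, whose size is not given here. The median over the 39 genes was 0.10 and 0.17 without CD137 replicates 2 and 3, with no test. Signs turned for genes near 0 that had not passed. Atg4b was at -0.0035 under median-ratio scaling, and at 0.0679 and -0.0133 without CD137 replicates 2 and 3. Likewise without replicates 2 and 3, Ambra1 was at -0.0375 and 0.0097 and Gabarapl2 at -0.0111 and 0.194. No paired analysis was possible because, among the 3 libraries analysed, the groups share only replicate number 2. With a single control library, a difference between cultures cannot be told apart from the effect of Cd137.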
